A study of Rattus norvegicus with 10 samples.

Results

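The genes described here were 9 genes by which neutrophils and monocytes are commonly recognised in tissue RNA, measured in rat liver 24 h after total body irradiation (TBI). They were S100a8, S100a9, Mpo, Elane, Csf3r, Fpr1, Cd14, Itgam and Ncf1, and a probe was taken as measuring one of them where its accession, or an older alias, led to that symbol. A probe was found for 8 of the 9, among 13426 genes that could be named on the array, and Mpo is named only. Neutrophils and monocytes are short-lived myeloid cells made in the bone marrow and carried in blood. They enter tissue through adhesion receptors, recognise bacterial products through surface receptors, and kill with granule enzymes and with oxygen radicals made by the NADPH oxidase. In liver they pass through the sinusoids beside Kupffer cells, the resident macrophages, which share many of their genes.

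The livers came from male Wistar rats in 3 groups, and the age of the rats was not given in the sources used here. The control group held 3 rats at 0 Gy without drug. The TBI group held 3 rats irradiated with 6.5 Gy from a cobalt source, and the MASM + TBI group held 4 rats given MASM, a synthetic derivative of the plant alkaloid matrine, into the stomach at 30 mg/kg per day for 3 days before the same irradiation. The dose is that of the labels, and the study gives a different dose for these same arrays. Among the livers put on arrays none came from a rat given MASM without irradiation, so 3 comparisons could be made. These were irradiated rats without MASM against controls (TBI against control), irradiated and pretreated rats against controls, and pretreated against other irradiated rats (MASM + TBI against TBI).

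Each array gave 1 value per probe, the background-corrected spot intensity, shown here as log2 signal after quantile normalization. Differences are tested only within a probe, since different probes bind with different strength. Spots that the scanner software placed well above background made up 57.2 to 59.9% of an array in control rats, 64.1 to 70.1% in TBI rats and 56.2 to 60.2% in MASM + TBI rats. The arrays lay on 3 slides. All TBI rats shared slide 2, all controls shared slide 1 with a single pretreated rat, MASM + TBI rat 3, and the remaining pretreated rats were on slide 3. Slide and irradiation without MASM therefore cannot be told apart, since no TBI rat shared a slide with a rat of another group. This holds for TBI against control and also for MASM + TBI against TBI, where pretreatment and slide cannot be told apart. Cdkn1a, a p53 target that rises after irradiation, lay at 8.01, 8.25 and 8.84 in the control rats, at 13.47, 13.67 and 14.06 in the TBI rats and at 13.06, 13.23, 12.80 and 13.58 in the MASM + TBI rats. The labelled exposure thus fitted this gene in every rat, and the labelled tissue fitted its markers, since all 7 hepatocyte genes examined were measured well above background in every rat.

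Of the 8 members with a probe, 5 were well above background on all 10 arrays: S100a8, S100a9, Cd14, Itgam and Ncf1. Csf3r passed on 1 array, and Elane and Fpr1 on none. At a Benjamini-Hochberg adjusted p under 0.05 in limma, 0 of the 8 members were called in TBI against control, where 2305 of 40945 probes (5.63%) were called. The count was also 0 of 8 in MASM + TBI against control, where 1225 probes (2.99%) were called, and 0 of 8 in MASM + TBI against TBI, where 666 probes (1.63%) were called. At an unadjusted p under 0.05, limma took 0, 0 and 2 members in the same order, against 23.5%, 17% and 17% of all probes, and the 2 were Itgam and Ncf1. The methods' t-test, which the study names beside its gene counts together with a fold filter and which was run here with unequal variances and without that filter, took 0 members in each comparison at an unadjusted p under 0.05, against 15.1%, 14.4% and 11.7% of all probes, and 0 after adjustment, against 0.0244%, 0.0977% and 0.00977%. With 3 or 4 rats in a group, intervals of the differences are given below so that the size of change these data leave possible can be read. In whole liver RNA, fewer cells of a type and less RNA per cell cannot be told apart.

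**Figure D1:**
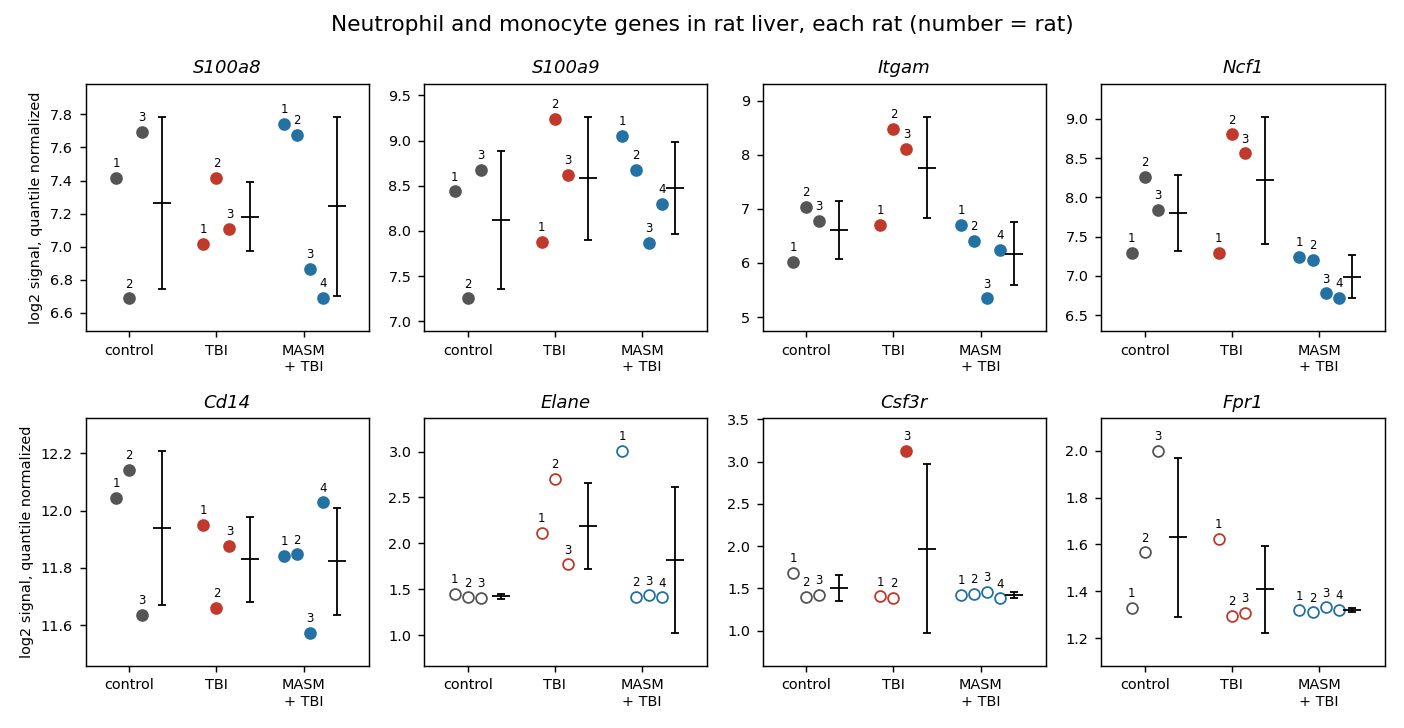
Log2 signal, quantile normalized (vertical axis, scaled separately in each panel), of the 8 members with a probe in control, TBI and MASM + TBI rats (horizontal axis). Each point is 1 rat with its number, filled points are arrays on which the probe was well above background, open points are arrays on which it was not, and the bars give mean ± SD; Ncf1 was below all control and TBI rats in the 4 MASM + TBI rats, and Elane and Fpr1 have open points only.

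S100a8 and S100a9 encode the calgranulins, calcium-binding proteins that pair with each other and fill the cytosol of neutrophils and monocytes. S100a8 had a log2 signal of 7.42, 6.69 and 7.69 in control rats 1 to 3, of 7.02, 7.42 and 7.11 in TBI rats 1 to 3, and of 7.74, 7.68, 6.86 and 6.69 in MASM + TBI rats 1 to 4. The 3 groups overlapped, with the lowest values in control rat 2 and MASM + TBI rat 4 and the highest in MASM + TBI rat 1 and control rat 3. The log2 difference was -0.08 in TBI against control (95% interval -0.89 to 0.72, limma adjusted p = 0.911), -0.02 in MASM + TBI against control (-0.77 to 0.73, adjusted p = 1) and 0.06 in MASM + TBI against TBI (-0.69 to 0.81, adjusted p = 0.949). In fold terms the first of these intervals ran from 0.541 to 1.65 times the control level, so a loss or gain larger than that lay outside it. The signs of these small differences changed when single rats were left out: without control rat 3 the first was 0.13, without control rat 1 or 3 or MASM + TBI rat 3 or 4 the second was 0.05 to 0.19, and without TBI rat 1 or MASM + TBI rat 1 or 2 the third was -0.10 to -0.02. The second was also above 0 with the slide as a random block (0.06) and with the replicate block (0.16).

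S100a9 lay at 8.44, 7.25 and 8.68 in the control rats, at 7.88, 9.24 and 8.62 in the TBI rats, and at 9.05, 8.68, 7.87 and 8.30 in the MASM + TBI rats. Again the groups overlapped, control rat 2 was lowest of all 10, and TBI rat 2 was highest. The TBI mean stood 1.38-fold above the control mean, an estimate whose 95% interval ran from 0.643 to 2.95 times (log2 difference 0.46, limma adjusted p = 0.6). MASM + TBI stood 1.28-fold above control (0.626 to 2.6 times, adjusted p = 0.798) and 1.08-fold below TBI (log2 difference -0.11, interval -1.14 to 0.92, adjusted p = 0.934). The spread among control rats, an SD of 0.76 in log2 units, was larger than each of the 3 differences of S100a9. Without control rat 2 the difference of TBI from control was 0.03 (adjusted p = 0.983), and over all rats left out in turn it ran up to 0.81. The difference from control in MASM + TBI rats turned to -0.08 without control rat 2 (adjusted p = 1), and the difference from TBI turned to 0.22 without TBI rat 2 (adjusted p = 0.881) and to 0.09 without MASM + TBI rat 3 (adjusted p = 0.957).

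The calgranulins varied together from rat to rat. Over the 10 rats Pearson's r between S100a8 and S100a9 was 0.77 (Spearman's rho 0.81), and 0.84 between their deviations from the group means. It was 0.74 without the 2 rats farthest from the median of S100a8. This was 1 of 10 pairs among the 5 well measured members, each computed over the same 10 arrays, whose points share their array, slide and normalization; it is a description with no test.

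Mpo and Elane encode myeloperoxidase and neutrophil elastase, enzymes of the azurophil granules that are transcribed in bone marrow precursors and largely silent in mature neutrophils. Elane was not well above background on any of the 10 arrays, with log2 signals from 1.40 in control rat 3 to 3.01 in MASM + TBI rat 1. No fold change is given for it, because all 3 groups had only an upper bound. The control values of 1.40 to 1.45 lay below the TBI values of 1.77 to 2.7, an order without meaning under that bound (limma adjusted p = 0.325).

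Among the surface receptors, Csf3r binds granulocyte colony-stimulating factor, Fpr1 binds formyl peptides shed by bacteria, and Cd14 presents lipopolysaccharide to the Toll-like receptor 4 complex. Csf3r was well above background only in TBI rat 3, at 3.12, while the other 9 rats lay between 1.38 and 1.68. That rat's array also had the highest share of spots well above background, 70.1%, and whether this bears on the value was not tested. Fpr1 was not well above background in any rat, with values from 1.29 to 2.00. Csf3, the gene of the Csf3r ligand, was likewise not well above background in any rat.

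Cd14 was measured by a pair of probes, and the brighter one is used. It lay at 12.04, 12.14 and 11.64 in the control rats, at 11.95, 11.66 and 11.88 in the TBI rats, and at 11.84, 11.85, 11.57 and 12.03 in the MASM + TBI rats. All 3 groups overlapped between 11.57 and 12.14, the narrowest range of the 5 well measured members. TBI was 1.08-fold below control (log2 difference -0.11, 95% interval -0.48 to 0.26, limma adjusted p = 0.722), MASM + TBI was 1.08-fold below control (-0.12, interval -0.47 to 0.23, adjusted p = 0.806), and the difference between the irradiated groups was -0.01 (interval -0.36 to 0.34, adjusted p = 0.991). The other Cd14 probe gave log2 differences of -0.04, 0.14 and 0.17 (adjusted p = 0.888, 0.632 and 0.488), so the probes disagreed in sign wherever MASM + TBI rats were compared, and under scaling to the 75th percentile the brighter probe itself gave 0.00 and 0.05 there. Without TBI rat 1 or 3 or MASM + TBI rat 3 the difference between the irradiated groups was 0.05, 0.02 and 0.08. Kupffer cells and hepatocytes are also known to express Cd14.

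Itgam and Ncf1 were the members that differed most between rats. Itgam encodes the alpha chain of the complement receptor and adhesion molecule Mac-1, found on neutrophils, monocytes and part of the tissue macrophages. Its log2 signal was 6.02, 7.04 and 6.79 in control rats 1 to 3, 6.70, 8.49 and 8.11 in TBI rats 1 to 3, and 6.70, 6.40, 5.34 and 6.25 in MASM + TBI rats 1 to 4. TBI rats 2 and 3 stood above all other rats, TBI rat 1 lay within the control range, and MASM + TBI rat 3 was lowest. TBI was 2.22-fold above control (log2 difference 1.15, 95% interval -0.04 to 2.34, limma adjusted p = 0.227). MASM + TBI was 3.02-fold below TBI (-1.59, interval -2.71 to -0.48, unadjusted p = 0.0105 and adjusted p = 0.155 in limma) and 1.36-fold below control (-0.44, interval -1.55 to 0.67, adjusted p = 0.744), the latter from -0.74 to -0.16 with each rat left out in turn.

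Ncf1 encodes p47phox, the cytosolic subunit that assembles the NADPH oxidase in activated phagocytes. It lay at 7.29, 8.27 and 7.84 in the control rats, at 7.29, 8.80 and 8.56 in the TBI rats, and at 7.24, 7.21, 6.78 and 6.72 in the MASM + TBI rats. All 4 MASM + TBI rats were below every control and every TBI rat, by a margin of under 0.1 log2 units against control rat 1 and TBI rat 1. MASM + TBI was 2.34-fold below TBI (log2 difference -1.23, 95% interval -2.09 to -0.36, limma unadjusted p = 0.0109 and adjusted p = 0.156) and 1.76-fold below control (-0.81, interval -1.68 to 0.05, adjusted p = 0.327). TBI was 1.34-fold above control (0.42, interval -0.51 to 1.34, adjusted p = 0.571), with TBI rat 1 at the control minimum; this log2 difference ran from 0.12 to 0.88 with each rat left out in turn. The direction of each Itgam and Ncf1 difference was the same under scaling to the 75th percentile and with the normexp correction, but with normexp the Itgam difference between the irradiated groups was smaller (-0.80, limma adjusted p = 0.191). Over all settings the Itgam difference in TBI against control was as small as 0.62. That of Ncf1 was as small as -0.47 in MASM + TBI against control and -0.85 in MASM + TBI against TBI.

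The calls of both genes depended on 1 rat. Without TBI rat 1, Itgam was called in MASM + TBI against TBI at 4.37-fold lower (log2 difference -2.13, limma adjusted p = 0.0448, range over all alternatives 0.0448 to 0.487) and Ncf1 at 3.23-fold lower (-1.69, adjusted p = 0.0271, range 0.0271 to 0.535), so that 2 of 8 members were called instead of 0, beside 1220 of 40945 probes instead of 666. Leaving out any other rat gave 0 of 8 in that comparison. The share of spots well above background was 64.1% on the array of TBI rat 1, against 66.8% and 70.1% for TBI rats 2 and 3, and the median spot intensity was 29.4 against 35.7 and 56.6; the part of these differences in the result was not tested.

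**Figure D2:**
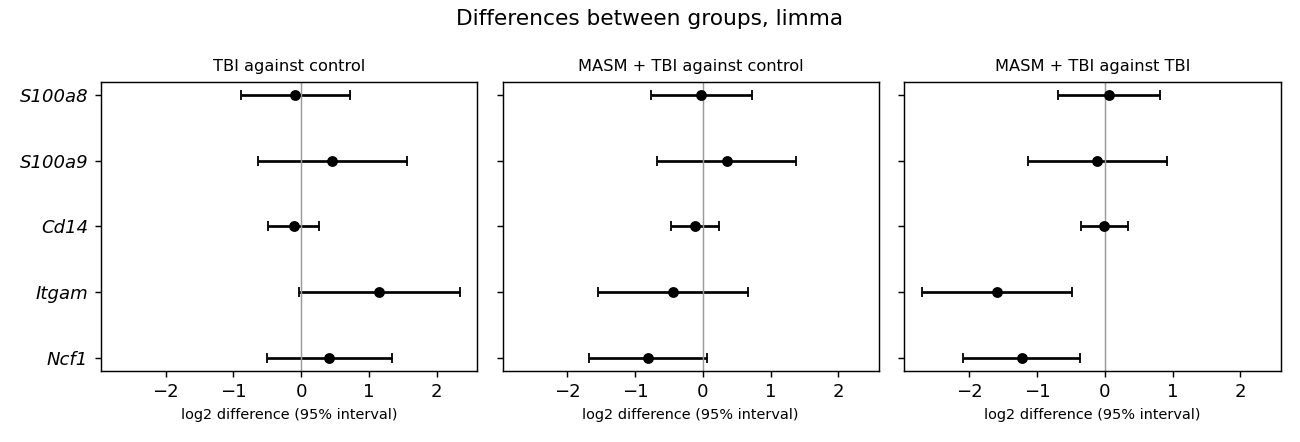
Log2 differences between group means (horizontal axis) with 95% intervals from limma for the 5 members well above background on all 10 arrays (vertical axis), 1 panel per comparison. Points are estimates and bars are intervals; in MASM + TBI against TBI, Itgam at -1.59 and Ncf1 at -1.23 have intervals below 0, before adjustment over all probes.

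Itgam and Ncf1 varied together over the 10 rats, with r = 0.91 (rho 0.84), 0.91 between deviations from the group means, and 0.75 without the 2 rats farthest from the median of Itgam. They followed the calgranulins less closely: r was 0.14 between S100a8 and Itgam, 0.10 between S100a8 and Ncf1, 0.42 between S100a9 and Itgam and 0.22 between S100a9 and Ncf1. Between deviations from the group means these were higher, at 0.30, 0.22, 0.52 and 0.36 in the same order. In control rat 2 the pairs parted, since S100a8 and S100a9 lay 0.58 and 0.87 log2 units below their control means while Itgam and Ncf1 lay 0.43 and 0.47 above theirs. In TBI rat 1 Itgam, Ncf1 and S100a9 were all low, at -1.07, -0.93 and -0.70 from their group means, and S100a8 was at -0.16. Cd14 followed neither pair, with r of -0.04 to Itgam, -0.06 to Ncf1, -0.40 to S100a8 and -0.46 to S100a9; without the 2 rats farthest from the median of the other gene these were 0.43, 0.28, 0.06 and 0.05, so their signs rested on those rats.

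**Figure D3:**
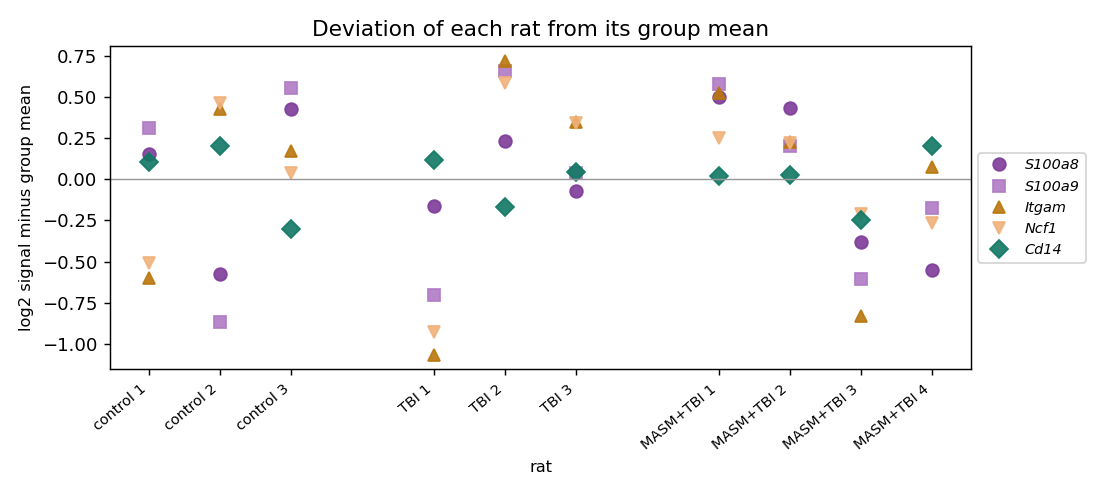
Log2 signal of each rat minus its group mean (vertical axis) for the 5 well measured members in the 10 rats (horizontal axis, by group). Each symbol is 1 gene; in control rats 1 and 2 the S100a8 and S100a9 symbols lie on the other side of 0 from those of Itgam and Ncf1, and in TBI rat 1 the Itgam, Ncf1 and S100a9 symbols lie lowest.

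The genes most like each member were sought among 8438 other genes well above background on all 10 arrays, by Pearson's r over the 10 rats. For Ncf1 they were Tyrobp (r = 0.992), C1qb (0.991) and Fermt3 (0.991), which encode a signalling adaptor of myeloid and natural killer cells, a complement chain made by macrophages and an integrin activator of blood cells. For Itgam they were Fxyd2 (0.969), Csf1r (0.968) and Fcgr2al1 (0.968), where Csf1r is the receptor by which macrophages are maintained. Within groups these 6 correlations were 0.93 to 0.99, so they did not rest on differences between group means. S100a9 was most like Trappc3 (0.892), Ambp (0.882) and Glul (0.869), and S100a8 most like Ambp (0.805), Car6 (0.794) and S100a9 (0.770); Ambp is a plasma protein gene and Glul glutamine synthetase, both expressed by hepatocytes. Cd14 was most like Gkap1 (0.924), Crnkl1 (0.909) and Aifm1 (0.887). As the highest of 8438 correlations each over 10 arrays, which share slide and normalization, these values are a description.

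Promoters of members that varied together are shown, so that the windows can be set beside each other. By symbol, 7 of the 9 members were matched to a window in RefSeq's GRCr8, and S100a8 and Elane were not. The windows are the 250 bases before the annotated start, 5′ to 3′ on the gene's strand, upstream of the first exon. Capitals mark GAGGAA, the core letters bound by PU.1, and TTNNGNAA, a loose core of the C/EBP factors, each on either strand.
S100a9, chr2:178490623-178490872, minus strand: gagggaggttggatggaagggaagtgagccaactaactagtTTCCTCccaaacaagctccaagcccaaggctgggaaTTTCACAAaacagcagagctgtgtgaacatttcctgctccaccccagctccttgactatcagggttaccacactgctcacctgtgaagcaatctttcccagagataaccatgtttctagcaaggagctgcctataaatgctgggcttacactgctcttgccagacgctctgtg
Itgam, chr1:192089342-192089591, plus strand: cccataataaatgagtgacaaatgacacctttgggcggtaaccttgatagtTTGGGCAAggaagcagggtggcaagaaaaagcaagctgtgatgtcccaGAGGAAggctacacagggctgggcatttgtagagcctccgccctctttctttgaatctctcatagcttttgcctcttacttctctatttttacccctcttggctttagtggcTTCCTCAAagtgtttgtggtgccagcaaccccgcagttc
Ncf1, chr12:28121635-28121884, plus strand: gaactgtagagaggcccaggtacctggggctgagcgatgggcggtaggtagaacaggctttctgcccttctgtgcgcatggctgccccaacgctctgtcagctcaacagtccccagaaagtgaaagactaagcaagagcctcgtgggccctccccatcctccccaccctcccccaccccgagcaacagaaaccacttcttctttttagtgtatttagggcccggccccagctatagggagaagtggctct
S100a9 held 1 match of GAGGAA and 1 of TTNNGNAA, Itgam held 2 and 2, of which 1 of each overlap, and Ncf1 held 0 and 0. Of the matched windows not shown, those of Mpo, Csf3r and Fpr1 held 1 and 1 each, and that of Cd14 held 2 and 1. Of all 33469 promoter windows of this length, 23.3% held GAGGAA and 37.2% held TTNNGNAA, so matches are common. A match here is a description of letters and not a bound site.

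Other genes of the same pathways were taken from 6 lists with 68 genes, of which 59 had a probe. In TBI against control 3 of the 59 rose and 0 fell, beside 2.44% of all probes called higher and 3.19% called lower. In MASM + TBI against control 0 rose and 1 fell, beside 1.26% and 1.73% of all probes. In MASM + TBI against TBI limma called 0 of 59, beside 0.911% and 0.716% of all probes; 28 of the 59 (47.5%) had an unadjusted p under 0.05 there, beside 17% of all probes, against 14 (23.7%) beside 23.5% in TBI against control and 10 (16.9%) beside 17% in MASM + TBI against control. The methods' t-test took 3 of 59 in MASM + TBI against TBI at its unadjusted threshold, beside 11.7% of all probes, and 0 after adjustment. The brightest probe named for each list is the one with the highest mean over the 10 arrays. Single rats and settings moved these counts. Without TBI rat 1 limma called 12 of the 59 lower in MASM + TBI against TBI, beside 1220 of 40945 probes called in either direction. In TBI against control it then called 13 higher and 1 lower, beside 1993 probes in either direction. By list the 12 and the 14 were 4 and 3 granule proteins, 1 and 1 of the NADPH oxidase, 3 and 6 receptors and adhesion molecules, 2 and 2 of lipopolysaccharide recognition, 1 and 1 growth factors and chemoattractants, and 1 and 1 transcription factors. Scaling to the 75th percentile gave 3 higher and 5 lower in MASM + TBI against TBI, beside 5459 probes in either direction. The slide as a random block, with an estimated correlation within slides of -0.13, gave 4 lower, beside 2048 probes in either direction. In TBI against control the number called was 0 without control rat 1 or 2, and 1 without control rat 3 or TBI rat 2; in MASM + TBI against control it was 0 without any 1 control rat or without MASM + TBI rat 2, 3 or 4.

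Among granule proteins, 15 of 16 genes had a probe. Lyz2, the lysozyme of macrophages and neutrophils and by its mean over the 10 arrays the brightest probe of the list, though below Slpi in the control rats, lay at 10.97, 11.16 and 11.34 in the control rats, at 10.81, 12.06 and 12.31 in the TBI rats and at 10.40, 10.45, 10.29 and 10.81 in the MASM + TBI rats, the pattern of Itgam and Ncf1 with TBI rat 1 low. Slpi, an inhibitor of neutrophil elastase made by neutrophils and epithelia, lay at 11.87, 12.50 and 12.67 in the control rats, at 9.65, 12.32 and 11.13 in the TBI rats and at 9.61, 9.83, 8.98 and 8.45 in the MASM + TBI rats. Slpi was the 1 granule gene called, 8.76-fold lower in MASM + TBI than in control (log2 difference -3.13 ± 0.60 SE, limma adjusted p = 0.0329, lower in 4 of 4 rats). Its call was lost without any 1 of the 3 control or 4 MASM + TBI rats, at log2 differences from -3.37 to -2.87 and adjusted p up to 0.1195, and with the slide as a fixed block (-3.37, adjusted p = 0.102), the replicate block (-2.87, adjusted p = 0.0936) or the methods' t-test (adjusted p = 0.0919). The median log2 difference of the 15 was -0.08, -0.14 and -0.26 in TBI against control, MASM + TBI against control and MASM + TBI against TBI, beside -0.03, 0.00 and 0.04 over all probes. In TBI against control and MASM + TBI against TBI limma called 0 granule genes, with 2 and 5 at an unadjusted p under 0.05. Ctsg and Mmp8, which like Elane belong to neutrophil granules, were not well above background on any array. The other 13 granule genes passed on at least 1 array. Prtn3, Np4, Pglyrp1, Anxa1, Lyz2 and Slpi did so on all 10 arrays, and Lcn2 and RatNP-3b on 9. Ngp and Chi3l1 passed on 4 arrays, Defa5 on 3, Mmp9 on 2 and Camp on 1.

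Of the NADPH oxidase, 4 of 5 further subunits had a probe and 0 were called by limma in each of the 3 comparisons; at an unadjusted p under 0.05 the counts were 0, 1 and 4. Cyba, the membrane subunit with the brightest probe, lay at 10.48, 11.49 and 11.35 in the control rats, at 10.39, 11.23 and 11.19 in the TBI rats and at 10.31, 10.50, 10.12 and 9.97 in the MASM + TBI rats. Control rat 1 and TBI rat 1 were low for Cyba, as for Ncf1. The medians of the 4 subunits were 0.30, -0.85 and -1.14 in the 3 comparisons in that order.

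Among receptors and adhesion molecules, 16 of 19 genes had a probe, with 2 up and 0 down in TBI against control and 0 called by limma in the other comparisons, with 2 and 8 at an unadjusted p under 0.05. Fcgr2a, an Fc receptor for immunoglobulin G on phagocytes, lay at 8.66, 8.83 and 8.77 in the control rats, at 9.21, 9.76 and 9.68 in the TBI rats and at 9.14, 9.0, 8.89 and 9.0 in the MASM + TBI rats, and rose 1.74-fold after TBI (log2 difference 0.80 ± 0.15 SE, limma adjusted p = 0.0207, higher in 3 of 3 rats). Trem1, an activating receptor of neutrophils and monocytes, lay at 4.06, 5.36 and 5.17 in the control rats, at 6.01, 6.67 and 6.76 in the TBI rats and at 5.36, 4.93, 4.42 and 4.89 in the MASM + TBI rats, and rose 3.07-fold after TBI (1.62 ± 0.38 SE, adjusted p = 0.0462, higher in 3 of 3 rats). Trem1 was well above background in 2 of 3 control, 3 of 3 TBI and 3 of 4 MASM + TBI rats. Neither gene's TBI values overlapped the control values, and neither did those of Itgb2 and Csf2rb, which were not called. Fcgr2a and Trem1 were named for their calls in these same values, so the lack of overlap adds no support. The Fcgr2a call was lost without control rat 1, 2 or 3 or TBI rat 2 (adjusted p from 0.0507 to 0.0657), and the Trem1 call without any 1 control rat, TBI rat 2 or 3, or MASM + TBI rat 1, 2 or 4 (adjusted p from 0.0581 to 0.11). With the normexp correction the Trem1 difference was 0.46 and still called. Ptafr, the receptor of platelet-activating factor and by its mean over the 10 arrays the brightest probe of this list, though below Fcgr3a in the control rats, lay at 9.40, 9.95 and 9.66 in the control rats, at 9.74, 11.26 and 11.06 in the TBI rats and at 9.94, 9.73, 9.70 and 9.80 in the MASM + TBI rats, and was not called. The list's medians were 0.50, 0.08 and -0.52 in the 3 comparisons, and Cxcr1, Ccr2, Clec4d and Clec4e were not well above background on any array. The list's count in TBI against control was 6 without TBI rat 1, 0 without any 1 control rat or TBI rat 2, and 1 without TBI rat 3 or MASM + TBI rat 1, 2 or 4.

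In the lipopolysaccharide recognition list 6 of 7 genes had a probe, and limma called 1 in TBI against control and 0 in the other comparisons, with 2 and 3 at an unadjusted p under 0.05. Lbp, the plasma protein that hands lipopolysaccharide to Cd14 and is made by hepatocytes, was the brightest probe of the list and lay at 9.96, 10.13 and 10.48 in the control rats, at 11.31, 11.92 and 11.25 in the TBI rats and at 11.08, 10.98, 10.51 and 11.00 in the MASM + TBI rats. All 3 TBI rats were above all control rats, a rise of 2.47-fold (log2 difference 1.30 ± 0.23 SE, limma adjusted p = 0.0179). Tlr2 of the same list was likewise without overlap and was not called. The call of Lbp was lost without control rat 1 or 2 (adjusted p = 0.0554 and 0.057). Like those of Fcgr2a and Trem1, it was also lost in a model of only 2 groups, with the replicate block and by the methods' t-test (adjusted p from 0.0626 to 0.303 over these 3 genes). The medians of the 6 genes were 0.13, -0.03 and -0.52 in the 3 comparisons, and the list's count in TBI against control was 2 without TBI rat 1.

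Growth factors and chemoattractants gave 10 of 12 genes with a probe and 0 called by limma in each comparison, with 1, 2 and 4 at an unadjusted p under 0.05. Il1b, the interleukin 1 beta of activated phagocytes and the brightest probe here, lay at 9.28, 9.86 and 9.59 in the control rats, at 9.76, 12.12 and 11.92 in the TBI rats and at 9.88, 9.53, 9.97 and 8.43 in the MASM + TBI rats, with TBI rats 2 and 3 apart from all others. Csf3, Cxcl6 and Il6 were not well above background on any array, and the list's medians were -0.02, -0.12 and -0.40. Of the myeloid transcription factors 8 of 9 had a probe and 0 were called in each comparison, with 3, 2 and 4 at an unadjusted p under 0.05 and medians of -0.03, -0.52 and -0.35. Cebpd, the brightest probe of that list, lay at 10.44, 11.18 and 10.99 in the control rats, at 10.83, 11.65 and 11.54 in the TBI rats and at 10.71, 10.68, 10.91 and 10.05 in the MASM + TBI rats. Over all 59 list genes the methods' t-test, without a fold filter, called 0 after adjustment in each comparison, and 7, 9 and 3 at an unadjusted p under 0.05, beside 15.1%, 14.4% and 11.7% of all probes.

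Markers of other cells in liver are set beside Itgam and Ncf1 as whole lists, with the signals of a list's probes summed in each rat. Of 7 Kupffer cell markers 6 had a probe, all well above background, and limma called 0 in each comparison, with 1, 0 and 4 at an unadjusted p under 0.05. Their summed signal was 47300, 67200 and 55300 in the control rats, 46900, 87100 and 64200 in the TBI rats and 46300, 46400, 40000 and 37300 in the MASM + TBI rats, mostly from Clec4f. In this sum control rat 1 and TBI rat 1 were low in their groups and TBI rat 2 was highest, as for Itgam and Ncf1, and 4 of the 6 markers (Clec4f, Marco, Adgre1 and Cd68) had TBI rat 1 lowest of its group by over 0.3 log2 units, while Cd163 lay at 8.12, 8.22 and 7.65 and Vsig4 at 9.46, 9.50 and 9.56 in TBI rats 1 to 3. The part of Kupffer cells in those genes' values was not tested. Natural killer markers (5 of 5 with a probe, 0 called in each comparison by limma, 0, 3 and 2 at an unadjusted p under 0.05) summed to 1060, 2330 and 1670, to 631, 2030 and 1470, and to 873, 619, 536 and 394, with Nkg7 brightest. These too were low in control rat 1, TBI rat 1 and the MASM + TBI rats.

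Pan-leukocyte markers had a probe for 4 of 5 genes and summed to 5960, 8480 and 7250 in the control rats, 5110, 11900 and 9910 in the TBI rats and 3560, 3990, 3350 and 3760 in the MASM + TBI rats, with Laptm5 brightest; 2, 4 and 3 of the 4 had an unadjusted p under 0.05 in limma, with medians of -0.70, -1.28 and -0.90. Coro1a, an actin-binding protein of leukocytes, was the 1 called, 2.45-fold lower in TBI (limma adjusted p = 0.0259) and 4.78-fold lower in MASM + TBI (adjusted p = 0.00275) than in control; the TBI call was lost without control rat 2 or 3 (adjusted p = 0.0773 and 0.0882), in a model of only 2 groups (adjusted p = 0.0779) and with the replicate block (adjusted p = 0.0684). In TBI against control this list was split, with log2 differences of 0.55 for Laptm5, -0.21 for Ptprc and -1.19 for Cd52 (adjusted p from 0.0914 to 0.734). All 8 T lymphocyte markers had a probe and summed to 659, 880 and 819, to 437, 518 and 594, and to 406, 457, 278 and 409 in the 3 groups in that order, with Cd3d brightest and Cd3e and Cd5 not well above background on any array. Of these 8, limma called 3 lower in TBI against control, 2 in MASM + TBI against control and 1 in MASM + TBI against TBI; 1 of the 3 and 1 of the 2 was Cd3e, which has only upper bounds in all groups. All probes were called lower at 3.19%, 1.73% and 0.716% in these comparisons. Not all T lymphocyte markers pointed down in TBI against control, where the log2 difference was 0.78 for Cd8b, 0.71 for Cd4 and 0.30 for Cd5 (adjusted p from 0.158 to 0.55). The 1 call in MASM + TBI against TBI was Cd8b (log2 difference -2.01, limma adjusted p = 0.0135), lost with the replicate block (adjusted p = 0.102). In that comparison 3 of the 8 were higher, among them Cd2 without a call (limma adjusted p = 0.0737). Cd3g fell from 7.07, 7.31 and 7.09 in the control rats to between 2.84 and 4.40 in the irradiated rats, where it was well above background in 2 of 3 TBI and 1 of 4 MASM + TBI rats (adjusted p = 0.00381 for TBI and 0.00343 for MASM + TBI). Its log2 differences of -3.60 and -3.61 were -1.07 and -1.08 with the normexp correction, and still called. They rest partly on values not well above background, so their sizes are not exact. Of 5 B lymphocyte markers 3 had a probe, 1 of which fell in each comparison with control, and the sums were 214, 199 and 213, then 168, 273 and 292, then 177, 134, 138 and 153, with Cd22 brightest. The 1 that fell was Cd79b, at 4.63 to 6.11 in the control rats and not well above background in any irradiated rat, while in TBI against control the differences of Cd22 and Blk were 0.54 and 0.12 (adjusted p = 0.117 and 0.953). The irradiated groups have only a bound, set by the dimmest probe well above background on each array. With that bound, Cd79b was at least 4.98-fold lower in TBI than in control (limma adjusted p = 0.00484). It was at least 2.55-fold lower in MASM + TBI than in control (limma adjusted p = 0.00378). Both bounds are those of the main setting only, and the differences with normexp were smaller than these bounds. With the normexp correction the Cd79b differences were -0.32 (adjusted p = 0.0538, no longer called) and -0.43 (adjusted p = 0.0157), and the MASM + TBI call was lost with the slide as a fixed block (adjusted p = 0.143) or the replicate block (adjusted p = 0.0582). Their part in the members' values was not tested.

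Blood held in the tissue would carry both neutrophils and red cells. Erythroid markers, 4 of 7 with a probe, summed to 4610, 3810 and 1860 in the control rats, 1270, 1290 and 2620 in the TBI rats and 1690, 1190, 1290 and 1800 in the MASM + TBI rats, mostly from Hbb, with 0 called by limma in each comparison and 3, 3 and 0 at an unadjusted p under 0.05. The list was split: log2 differences were -1.30 for Hbb, -1.14 for Alas2, 1.42 for Epb42 and 1.53 for Slc4a1 in TBI against control, and -1.29, -1.56, 1.71 and 0.98 in MASM + TBI against control. The part of blood in the members' values was not tested. Mast cell and basophil markers, 4 of 4 with a probe, had 1 call in each comparison, all lower, and 3 of the 4 (Ms4a2, Fcer1a and Kit) were on no array well above background; the TBI against control call was Kit, and Cpa3 carried the calls in both comparisons of MASM + TBI rats. Cpa3 was well above background in all control and TBI rats and in 0 of 4 MASM + TBI rats, so it was at least 1.38-fold lower there than in control, and no fold is given against TBI. This bound is that of the main setting only. Over all settings the Cpa3 log2 difference from control in MASM + TBI rats ran from -2.49 to -0.27. In MASM + TBI against TBI the other 3 probes had higher values in the MASM + TBI rats, without a call (adjusted p from 0.0786 to 0.723). The Cpa3 call against TBI was lost without any 1 of 8 rats (adjusted p up to 0.103), with the normexp correction (adjusted p = 0.058), with 2 groups per model (adjusted p = 0.106) and with the replicate block (adjusted p = 0.184). Against control it was lost with the replicate block (adjusted p = 0.0677) and with the slide as a fixed block (adjusted p = 0.0744). Their sums were 42.6, 35.8 and 38.5, then 25.6, 26.4 and 21.2, then 23.7, 21.4, 23.0 and 26.5. Stellate cell markers had 1 of 4 lower, Lrat, in both comparisons with control (calls lost in TBI with 2 groups per model or the replicate block, adjusted p = 0.0664 and 0.0637, and in MASM + TBI under scaling to the 75th percentile, with the replicate block, with the slide as a fixed block or without MASM + TBI rat 1, adjusted p from 0.0511 to 0.129; Rgs5 was at 0.30 and 0.31 and Reln at 0.40 and 0.12 in the same comparisons, with 2 and 3 of the 4 at an unadjusted p under 0.05) and 0 by limma in MASM + TBI against TBI, with 0 at an unadjusted p under 0.05, while endothelial (4 of 5 with a probe), cholangiocyte (2 of 4) and hepatocyte (7 of 7) markers had 0 calls by limma in each comparison, with 2, 2 and 0, with 0, 0 and 0, and with 2, 2 and 0 genes at an unadjusted p under 0.05. Over all 51 markers with a probe the methods' t-test, without a fold filter, called 0 after adjustment in each comparison, and 11, 20 and 8 at an unadjusted p under 0.05, beside 15.1%, 14.4% and 11.7% of all probes. In limma 7, 6 and 2 of the 51 were called lower and 0 higher, beside 3.19%, 1.73% and 0.716% of all probes called lower, and 21, 24 and 16 (41.2%, 47.1% and 31.4%) had an unadjusted p under 0.05, beside 23.5%, 17% and 17%.

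Within slide 1, the single MASM + TBI rat there could be set beside the 3 control rats, which equals the fit with the slide as a fixed block. The log2 differences were -0.40 for S100a8, -0.26 for S100a9, -1.27 for Itgam, -1.02 for Ncf1 and -0.37 for Cd14, and 0 of 8 members were called. S100a9 thus had the other sign within the slide than over all rats, Itgam moved from -0.44 to -1.27, and both values rest on 1 MASM + TBI rat.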

How the data were processed

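Liver RNA of 10 rats had been labelled with Cy3 and hybridised to 1-colour Agilent arrays, and the authors deposited the intensity of each spot as background-corrected by Agilent Feature Extraction 10.7, per the submitters' processing notes. The deposited series table, also an intensity, was identical to the scanner values (largest difference 0). The members and gene lists were chosen with earlier results of these data known.

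Each array held 43379 spots that were not controls. Spots with outlier flags were left out, spots of a probe were averaged, and 40945 of 41012 probes with a value on every array were analysed. Values were log2 transformed and then quantile normalized, the normalization that the study's methods name. Accessions on the array were matched, without versions, to RefSeq symbols (GRCr8), which named 16968 probes and 13438 genes, of which 13426 kept a probe with a value on every array. A gene with several probes is given by its brightest. Groups, replicate numbers and dose came from the labels and slides from the file headers.

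Comparisons used limma 3.58.1 in R 4.3.3, with 1 mean per group over all 10 arrays, empirical Bayes variances (1.43 prior degrees of freedom) and Benjamini-Hochberg adjustment over the 40945 probes; called means an adjusted p under 0.05. The genes named are the members, list genes called in at least 1 comparison, each list's brightest gene and the 3 genes most like each well measured member. Single marker genes of other cell types (Cd3g, Cd8b, Cd79b, Coro1a, Cpa3, Lrat) were named after their values were seen. So were genes listed by the arrays on which they were or were not above background. The same holds for genes given to show how a list was split or ordered (among them Cd2, Cd163, Vsig4, Alas2, Epb42, Slc4a1 and Fcgr3a). Of the listed genes 2 are not reported here and are left out of every list count. The script was tested on simulated data. The number of arrays limits the precision.

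Other settings tried were the 75th percentile as scale, a normexp correction of median intensities, since the files hold no mean signal column, with an offset of 50, the series table, leaving out dim probes, 2 groups per model, the methods' t-test (unequal variances, no fold filter), a prior that was trended and robust, the slide or the replicate number as a block, the mean over a gene's probes, and each rat left out.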

Additional observations from a re-analysis of the deposited data

How the results depend on the processing

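Of the counts of members called, 0 of 8 in each comparison, 2 moved. Scaling to the 75th percentile called 1 member in TBI against control, Fpr1 (log2 difference -0.92, limma adjusted p = 0.0466), which is not well above background on any array; the cause was not tested. Leaving out each rat gave 0 to 0 members in TBI against control, 0 to 0 in MASM + TBI against control and 0 to 2 in MASM + TBI against TBI, where the 2 were Itgam and Ncf1 without TBI rat 1.

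The replicate block gave 0 members in each comparison and 1053, 298 and 22 probes in place of 2305, 1225 and 666. Deviations of same-numbered rats correlated at -0.13 to 0.17, so the numbers were not taken as a pairing, although each control and TBI rat correlated best with its own number in the other group. Under the replicate block S100a8 was at 0.16 in MASM + TBI against control.

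Of 305 recomputed differences of the 5 well measured members, 281 kept their sign and stayed uncalled, 2 became calls and 22 changed sign; the cause was not tested. In MASM + TBI against control these were S100a8 with the slide as a random block (0.059), S100a9 with the slide as a fixed block (-0.26), and Cd14 under scaling to the 75th percentile (0.0028) and as a mean over its probes (0.0092). In MASM + TBI against TBI they were Cd14 under that scaling (0.0468), with the slide as a random block (0.0112) and as a mean over its probes (0.0819). Leaving out each rat gave S100a8 -0.37 to 0.13, -0.31 to 0.19 and -0.10 to 0.25 in TBI against control, MASM + TBI against control and MASM + TBI against TBI, S100a9 -0.0827 to 0.63 and -0.46 to 0.22 in the comparisons of MASM + TBI rats, and Cd14 -0.0906 to 0.0766 in MASM + TBI against TBI.

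All-probe counts moved with the setting: 7458, 815 and 5459 calls in the 3 comparisons under scaling to the 75th percentile, 972 in TBI against control and 263 in MASM + TBI against TBI with 2 groups per model, 10, 40 and 4 by the methods' t-test, 6742, 2852 and 2048 with the slide as a random block, and 536 in MASM + TBI against control with the slide as a fixed block. Scaling to the 75th percentile also moved the share of calls that were higher from 43.3% to 24.3% in TBI against control and from 56% to 82.4% in MASM + TBI against TBI. Of the 59 list genes, TBI against control had 3 called as reported, 10 under that scaling, 0 with 2 groups per model, the replicate block or the methods' t-test, 10 with the slide as a random block (estimated correlation -0.13) and 14 without TBI rat 1. It also had 4 with normexp, 5 with the trended and robust prior, and 5 of the 42 genes left without dim probes. MASM + TBI against control had 1 called as reported, 4 with normexp, 3 without dim probes, 2 with 2 groups per model or the trended and robust prior, 5 with the slide as a random block, and 0 with the slide as a fixed block, the replicate block or the methods' t-test. MASM + TBI against TBI had 0 as reported, 8 under that scaling, 1 with normexp or without dim probes, 4 with the slide as a random block and 12 without TBI rat 1. Probes near background limit what Elane, Csf3r and Fpr1 can show.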
